A study of Homo sapiens with 4 samples.

Results

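The genes described here are 6 human genes of duplicated families on chromosome 1, the chromosome of *RP5-998N21.4* and its copies: *FAM72A*, *FAM72B*, *FAM72C*, *FAM72D*, *SRGAP2* and *NOTCH2NL*. They were chosen by symbol from the table of counts, which lists 57820 genes, and all 6 were found, with 30 listed transcripts between them. Their identifiers in the table are ENSG00000196550.6 (*FAM72A*), ENSG00000188610.8 (*FAM72B*), ENSG00000203817.5 (*FAM72C*), ENSG00000215784.4 (*FAM72D*), ENSG00000163486.8 (*SRGAP2*) and ENSG00000213240.7 (*NOTCH2NL*). The cells are SK-N-SH, an established human neuroblastoma line, and RNA-seq covered 2 libraries of cells transduced with an empty lentivirus without insert (vector control, or controls) and 2 libraries of cells transduced with a lentivirus carrying the lncRNA *RP5-998N21.4* (OE). The control libraries are titled WT, but their treatment label names the empty vector, so they too are transduced cells. In the construct the lncRNA was driven by the EF1a promoter, and whether the cells were a clone or a pool is not given in the sources used here. Nothing in the labels says that the 2 libraries of a condition came from separate cultures, so p-values measure the spread between these libraries, which may be technical.

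Segmental duplication copied pieces of chromosome 1 several times during human evolution, and some of the copies are found in humans and not in other apes. *FAM72A* encodes a small protein that binds the nuclear uracil DNA glycosylase UNG2, and *FAM72* genes are known to be expressed in dividing cells. *SRGAP2* encodes a GTPase-activating protein with an F-BAR domain that shapes membranes in migrating neurons and maturing synapses, and its partial copies *SRGAP2B* and *SRGAP2C* lack the later part of the gene. *NOTCH2NL* copies the first part of *NOTCH2*, which encodes a Notch receptor, and NOTCH2NL proteins are known to enhance Notch signaling in cortical progenitor cells.

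In hg19 coordinates, taken from the lifted GENCODE annotation, *FAM72C* spans 149438750 to 149459549 of chromosome 1 (minus strand), 59.1 kb from *RP5-998N21.4* (149372292 to 149379646, minus strand). *FAM72B* lies on the plus strand from 120837756 to 120855681, 70.0 kb from *RP11-439A17.9*, an annotated copy of the lncRNA. The other members are from 4080 kb (*NOTCH2NLA*, for *NOTCH2NL*) to 56800 kb (*SRGAP2*) from the nearest of the 3 lncRNA copies. *FAM72D* lies on the minus strand from 143896448 to 143913169, *FAM72A* on the plus strand from 206136916 to 206155151, and *SRGAP2* on the plus strand from 206516200 to 206637783. The gene identifier of *NOTCH2NL* in the table is not in that annotation, but 2 of its 4 listed transcripts are, neither with counts. Of these, 1 is placed there under the name *NOTCH2NLA*, a gene from 145209104 to 145291972 on the plus strand. The place of the other was not used here. In each of *FAM72A* and *FAM72B* the exons overlap those of 1 other annotated gene, and in *NOTCH2NLA* those of 2, so such reads may be shared.

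The *FAM72* genes differ by few bases, and the coding stretch below shows how few. It is the part of the coding sequence that all 4 annotated transcripts hold, 217 bases in the last 2 coding exons, read from the lifted GENCODE transcripts for GRCh37, and it is shown because, within it, a read can tell the copies apart only at a base in capitals. Capitals mark the 5 positions at which at least 1 copy differs from the others.
FAM72A: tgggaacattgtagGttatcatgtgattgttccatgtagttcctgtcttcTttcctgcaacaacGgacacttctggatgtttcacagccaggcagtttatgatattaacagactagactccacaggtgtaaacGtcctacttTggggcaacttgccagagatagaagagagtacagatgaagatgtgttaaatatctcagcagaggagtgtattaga
FAM72B: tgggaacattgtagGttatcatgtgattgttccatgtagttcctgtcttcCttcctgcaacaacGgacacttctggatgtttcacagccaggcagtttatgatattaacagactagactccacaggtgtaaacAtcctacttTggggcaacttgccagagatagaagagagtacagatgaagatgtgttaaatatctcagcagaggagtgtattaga
FAM72C: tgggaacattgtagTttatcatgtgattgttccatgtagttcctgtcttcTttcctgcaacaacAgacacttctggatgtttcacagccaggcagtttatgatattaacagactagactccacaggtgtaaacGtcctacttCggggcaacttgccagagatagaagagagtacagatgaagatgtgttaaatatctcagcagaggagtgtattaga
FAM72D: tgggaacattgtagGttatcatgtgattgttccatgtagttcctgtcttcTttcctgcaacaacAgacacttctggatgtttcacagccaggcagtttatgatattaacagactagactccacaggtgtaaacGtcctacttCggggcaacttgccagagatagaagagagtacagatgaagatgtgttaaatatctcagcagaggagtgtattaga
Counted from 1 at the 5′ end of the stretch, *FAM72B* differs from *FAM72A* by T51C and G134A, *FAM72D* differs from *FAM72A* by G65A and T143C, and *FAM72C* carries these last changes together with G15T. *FAM72C* and *FAM72D* thus differ at 1 position. The stretch lies in exons from 206145454 to 206145578 and from 206153957 to 206154048 in *FAM72A*. The *FAM72C* transcript holds only these coding exons, while the coding sequence of the other transcripts is 447 bases long.

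Over their whole length, the transcripts of the *FAM72* copies were between 99.2% (*FAM72A* and *FAM72C*) and 99.7% (*FAM72C* and *FAM72D*) identical where they align. The reads were 150 bases long by the study's methods, so every window of 150 bases of the members' transcripts was looked up in all annotated transcripts. Windows also held by another gene made up 73.6% of the full-length *FAM72A* transcript, 55.3% of *FAM72B*, 78.2% of *FAM72C* and 68.2% of *FAM72D*. The other *FAM72A* transcripts with counts were less shared, from 10.6% to 32.8%, with 26.5% for ENST00000607379.1, which held most of the *FAM72A* counts. In *SRGAP2*, 7.92% of the windows of its 5967-nt transcript were shared with *SRGAP2C*. In *NOTCH2*, the parent of *NOTCH2NL*, 0.896% of the windows of the 11425-nt transcript were shared. The *SRGAP2B* transcripts and the counted *NOTCH2NL* transcripts are not in the annotation used here and were not searched, so the shares of *SRGAP2* and *NOTCH2* are lower limits. A read pair covers more than 1 window, so a pair can tell copies apart where a single window cannot.

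**Figure D1:**
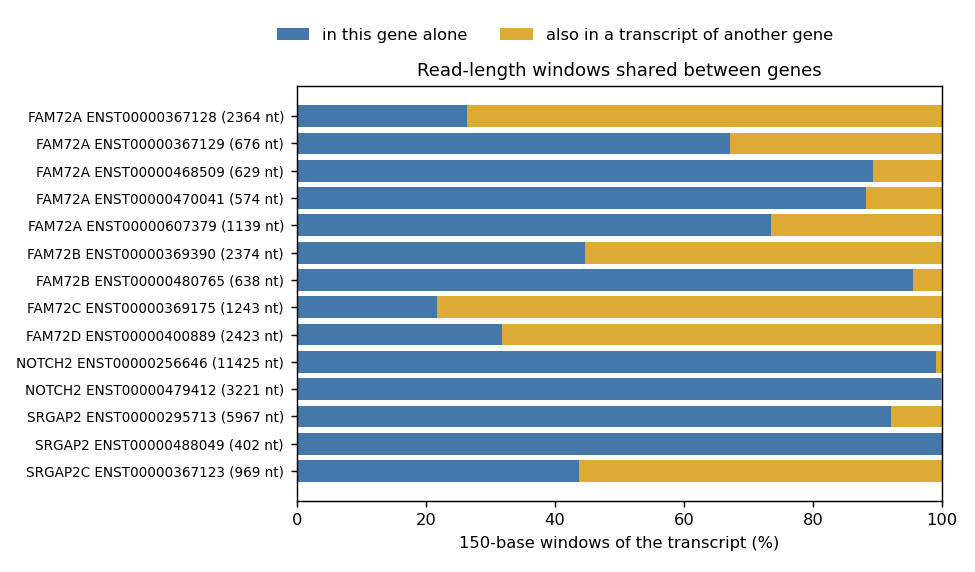
Share of the 150-base windows of each annotated transcript (horizontal axis, percent) that occur in that gene alone (blue) or also in a transcript of another gene (yellow). In the longest transcripts of the FAM72 copies, from 55.3% to 78.2% of the windows are shared, and in the FAM72A transcript with most counts 26.5%, against at least 7.92% in the 5967-nt transcript of SRGAP2, for which SRGAP2B was not searched.

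The counts of a single *FAM72* copy are therefore uncertain, less so for *FAM72A* by its counted transcripts. The sum over the copies does not depend on how reads were divided among them. It can still depend on reads shared with genes outside the sum, such as ENSG00000289318, which shares windows with *FAM72A* and *FAM72B* transcripts. The 4 libraries held from 23785164 to 28307591 counts, and levels are given in CPM, the usual counts-per-million scale, on library sizes normalized by edgeR's TMM method. The study's thresholds were an adjusted p under 0.01 and a log2 fold change beyond 0.5 in size. At these, edgeR's quasi-likelihood test called 0 of 20528 genes (0%), DESeq2 called 1800 (8.77%), and 20.8% had an unadjusted edgeR p under 0.05. With the adjusted p relaxed to 0.05, edgeR called 0.594%. Of the 6 members, all were tested and 0 were called by either tool or at the relaxed threshold, and 0 of 6 had an unadjusted edgeR p under 0.05. Conditions that do not overlap are common in these data, with 55.4% of the tested genes, 27.8% with OE higher and 27.6% with OE lower. Among the 6 members, *NOTCH2NL* was the only such gene, with OE higher.

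The summed *FAM72* level was nearly the same in all libraries. The 4 copies together had 729 and 811 counts in controls and 805 and 934 counts in OE. Their level was 31.3 and 34.5 CPM in the controls and 32.1 and 32.3 CPM in OE. Both OE libraries thus lay between the vector control libraries. The means were 32.9 ± 2.27 CPM (SD, n = 2) and 32.2 ± 0.146 CPM (SD, n = 2), and the log2 fold change of OE over vector control was -0.03 (standard error, SE, 0.103, 95% interval -0.33 to 0.26, edgeR adjusted p = 0.892 on a table with the families summed). Differences within this interval cannot be told from the spread between replicates.

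The separate copies gave the same picture. *FAM72A* had 215 and 260 counts in controls and 253 and 274 in OE. *FAM72B* had 228 and 254 counts in controls and 259 and 275 in OE, and *FAM72D* had 219 and 223 counts against 223 and 300. In CPM the conditions overlapped in each of them. *FAM72C*, the copy that lies nearest to *RP5-998N21.4*, was the least counted, with 67 and 74 counts in controls and 70 and 85 in OE. Its log2 fold change was -0.07 (SE 0.183, 95% interval -0.59 to 0.45, edgeR adjusted p = 0.858). The log2 fold changes of the other copies were -0.05 for *FAM72A*, -0.06 for *FAM72B* and 0.03 for *FAM72D*. The intervals of all 4 copies included 0.

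**Figure D2:**
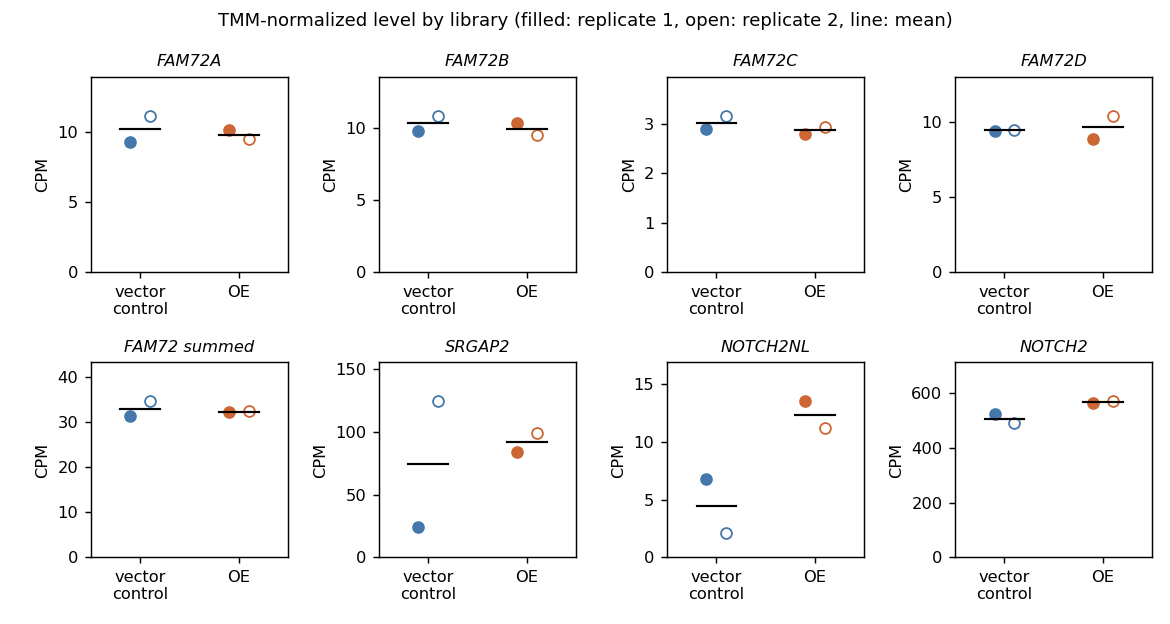
Level in CPM (vertical axes, starting at 0) of each member, of the summed FAM72 copies and of NOTCH2 in the vector control (blue) and OE (orange) libraries, where filled points are replicate 1, open points replicate 2 and lines the means. The FAM72 panels show overlapping conditions, SRGAP2 is at 24.3 CPM in vector control replicate 1 and at 84.2 to 124 CPM in the other libraries, and NOTCH2NL is higher in both OE libraries.

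The division of counts among the copies was also stable. *FAM72A* held from 29.3% to 32.1% of the *FAM72* counts of a library, *FAM72B* from 29.4% to 32.2%, *FAM72D* from 27.5% to 32.1% and *FAM72C* from 8.7% to 9.19%. For *FAM72C* the 95% Wilson interval in vector control replicate 1 ran from 7.3% to 11.5%, and it covers counting error only. On a scale of counts per kilobase of transcript, divided by the library total without TMM factors, the order of the levels was *FAM72A* (from 8.02 to 10.7), *FAM72B* (from 4.34 to 5.15), *FAM72D* (from 3.74 to 4.37) and *FAM72C* (from 2.27 to 2.47). On this per-length scale the ranges of *FAM72B* and *FAM72D* overlapped, while those of the other neighbors in the order did not. *SRGAP2* (from 15.8 to 31.2) and *NOTCH2* (from 42.0 to 50.6) lay above all *FAM72* copies on the same scale, and *NOTCH2NL* has no length in the annotation. For *SRGAP2* this rests on a 402-nt transcript in vector control replicate 1, where that transcript gave 12.7 and the 5967-nt transcript 3.13, below *FAM72A*, *FAM72B* and *FAM72D*. In the other libraries the 5967-nt transcript alone gave from 13.9 to 19.5. The place of *FAM72A* in this order depends on its transcript ENST00000607379.1, which has 1 exon of 1139 nt and held from 52.7% to 73.1% of its counts. The full-length 4-exon transcript ENST00000367128.3 held 105 counts in vector control replicate 2, while every other library had 0. In those 3 libraries, the shorter 4-exon transcript ENST00000367129.2 held from 50 to 67 counts, and it held 0 in vector control replicate 2. The transcripts of *FAM72A* thus traded places between libraries, while its total stayed between 9.23 and 11.1 CPM.

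**Figure D3:**
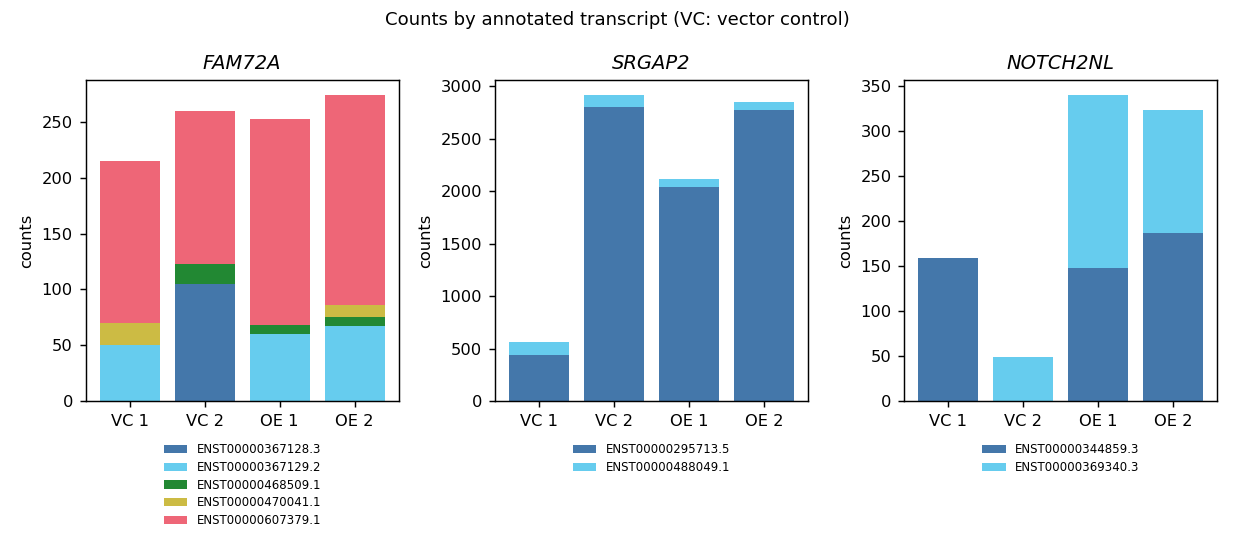
Counts (vertical axes) of FAM72A, SRGAP2 and NOTCH2NL in each library, stacked by transcript, with VC for vector control. FAM72A keeps its total while its 4-exon transcripts swap in VC 2, SRGAP2 is low in VC 1 on its main transcript, and NOTCH2NL is on 1 transcript in each VC library and on both in the OE libraries.

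*FAM72* genes are known as genes of dividing cells, so their level was set beside a list of 20 mitosis genes, all of which were tested. In that list 19 genes had a log2 fold change below 0 and 1 above, with a median of -0.59 against 0.01 over all genes tested. Both OE libraries lay below both vector control libraries in 18 of the 20 genes, against 27.6% of all tested genes. EdgeR called 0 of the 20 and DESeq2 called 11, against 8.77% of all tested genes by DESeq2. Of the 20, 14 had an unadjusted edgeR p under 0.05, all lower in OE, against 20.8% of all tested genes in either direction. The 14 became 9 without OE replicate 1. *MKI67*, the gene of the Ki-67 proliferation antigen, was at 198 and 176 CPM in the controls and at 93.7 and 94.8 CPM in OE. Its log2 fold change was -0.99 (SE 0.0906, edgeR adjusted p = 0.0615). *TOP2A*, which encodes the DNA topoisomerase of dividing cells, was at 84.7 and 82.7 CPM in the controls and at 54.7 and 49.9 CPM in OE. The log2 fold change was -0.68 (SE 0.0950, edgeR adjusted p = 0.0831). The lower levels were also seen under RLE and upper-quartile scaling, with 19 of the 20 genes below 0 in each.

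Relative to the mitosis list, *FAM72* counts were therefore higher in OE. There were 23.8 and 28.3 *FAM72* counts per 1000 counts of the mitosis genes in the controls and 42.0 and 39.0 in the OE libraries, so the conditions did not overlap. For 2 libraries against 2, the smallest two-sided p of an exact permutation test is 0.333. In bulk RNA, fewer dividing cells and less of these RNAs per cell cannot be told apart. The tested neuroblastoma markers were higher in the same libraries. Of 10 listed markers 9 were tested, and *TH* had 0 counts in all 4 libraries. Of the 9 tested markers, 0 were called by edgeR and 6 by DESeq2 (8.77% of all tested genes). All 9 had both OE libraries above the controls (27.8% of all tested genes). The list includes *CHGA* (chromogranin A), at 49.7 and 48.6 CPM in the controls and 136 and 121 CPM in OE. Their part in the *FAM72* ratio was not tested. Of 8 markers of other cell types, 3 passed the filter, with mean levels from 0.583 to 0.978 CPM.

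**Figure D4:**
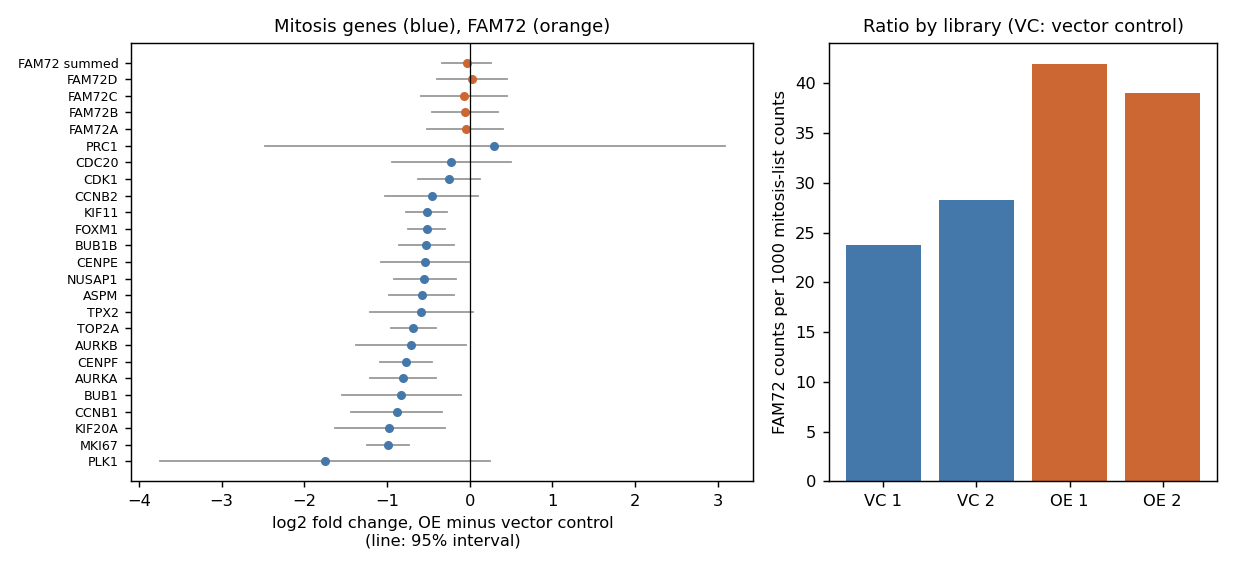
Left, log2 fold change of OE over vector control (horizontal axis, lines are 95% intervals from edgeR) of the 20 mitosis genes (blue), of the 4 FAM72 copies and of their sum (orange). Right, FAM72 counts per 1000 mitosis-list counts in each library, with VC for vector control, from 23.8 and 28.3 in VC to 42.0 and 39.0 in OE.

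The promoter of *FAM72A* is shown because in the GRCh38.p14 assembly it faces that of *SRGAP2*, with starts 702 bases apart on opposite strands, and the pair differed in their values across the 4 libraries. The sequences are the 250 bases before a start of each gene in RefSeq (GRCh38.p14), chr1:206202840-206203089 on the minus strand for *FAM72A* and chr1:206203291-206203540 on the plus strand for *SRGAP2*, each 5′ to 3′ in the direction of its gene. These coordinates are not those of hg19, the build of the counts. In the hg19 positions given above both genes lie on the plus strand, so the arrangement of the pair also differs between the builds. Capitals mark CCAAT, known as a binding site of NF-Y, and TTTGAA, a form of the cell cycle homology region known from genes of mitosis, searched on both strands and so also as ATTGG and TTCAAA.
FAM72A: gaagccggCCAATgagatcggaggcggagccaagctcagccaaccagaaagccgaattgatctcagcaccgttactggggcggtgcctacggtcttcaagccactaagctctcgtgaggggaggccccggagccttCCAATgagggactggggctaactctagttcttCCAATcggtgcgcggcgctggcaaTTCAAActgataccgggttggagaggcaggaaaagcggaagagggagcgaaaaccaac
SRGAP2: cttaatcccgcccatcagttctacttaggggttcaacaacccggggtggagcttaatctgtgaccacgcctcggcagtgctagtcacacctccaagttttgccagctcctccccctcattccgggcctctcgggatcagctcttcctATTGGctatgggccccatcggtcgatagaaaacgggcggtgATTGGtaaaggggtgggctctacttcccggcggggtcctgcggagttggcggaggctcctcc
The *FAM72A* window held CCAAT at 3 places and TTTGAA at 1, and the *SRGAP2* window held CCAAT at 2 and TTTGAA at 0. The windows of the other 3 *FAM72A* starts held CCAAT at 0 to 2 places and TTTGAA at 0 or 1. Of all 35116 RefSeq windows of this length, 32.0% held CCAAT and 13.3% held TTTGAA. A gene can have several starts, and by gene the shares were 37.0% and 16.1%, against 15 and 10 of the 17 mitosis genes with an entry. These matches describe the letters of the windows alone.

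*SRGAP2* varied more between the vector control libraries than between the conditions. It had 565 and 2915 counts in controls and 2112 and 2851 counts in OE. The level in vector control replicate 1 stood apart, at 24.3 CPM against 124 CPM in replicate 2 and 84.2 and 98.6 CPM in OE. The 5.11-fold gap between the vector control libraries was matched or passed by 416 of the 14023 genes averaging 4 CPM or more (2.97%). The gap lay on the main transcript, ENST00000295713.5, with 444 and 2801 counts in controls and 2041 and 2768 counts in OE. The short 2-exon transcript ENST00000488049.1 had 121 and 114 counts in controls and 71 and 83 in OE. The log2 fold change of *SRGAP2* was 0.30 (SE 0.826, 95% interval -2.05 to 2.65, edgeR adjusted p = 0.872). Leaving out vector control replicate 1 gave -0.45 and leaving out replicate 2 gave 1.91, so the direction rests on which control library is used.

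The partial copies of *SRGAP2* did not show this gap. *SRGAP2B* had 159 and 127 counts in controls and 139 and 122 counts in OE, a log2 fold change of -0.33 (SE 0.238, edgeR adjusted p = 0.504). *SRGAP2C* had 23 and 27 counts in controls and 23 and 20 counts in OE, with a log2 fold change of -0.41 (SE 0.332, edgeR adjusted p = 0.546). In CPM the OE libraries of *SRGAP2C* lay below the vector control libraries, on counts too few to set the size of a difference. With each library left out, the log2 fold change lay between -0.54 (without OE replicate 1) and -0.14 (without OE replicate 2) for *SRGAP2B*, which was at -0.15 without vector control replicate 1, and between -0.62 and -0.22 for *SRGAP2C* without the same libraries. *SRGAP2D* was not analysed here. Summed over the copies, the family had 747 and 3069 counts in controls and 2274 and 2993 counts in OE. The low value in vector control replicate 1 was thus present in the sum too, and the log2 fold change of the sum was 0.25 (SE 0.719, edgeR adjusted p = 0.876).

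**Figure D5:**
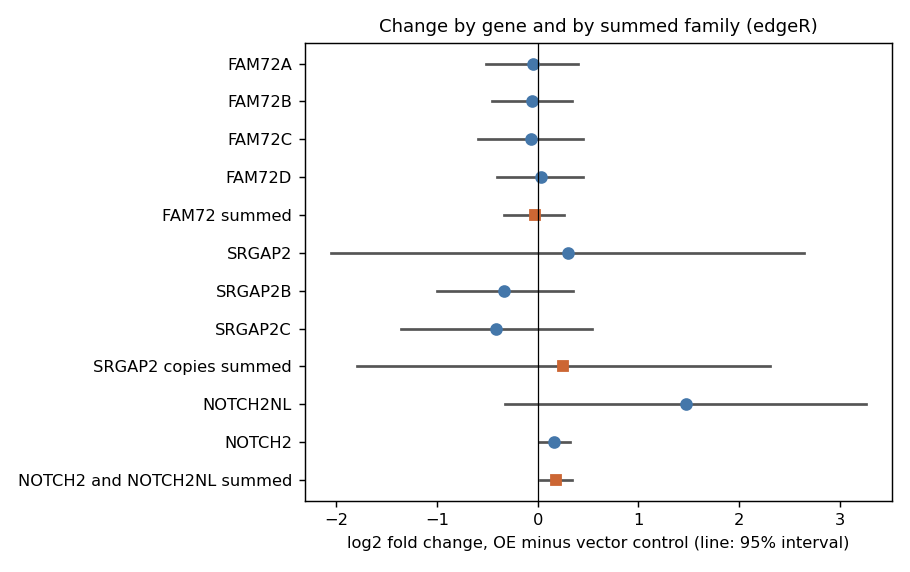
Log2 fold change of OE over vector control from edgeR (horizontal axis) with its 95% interval for the single genes (blue circles) and for the summed families (orange squares). The FAM72 intervals are narrow and include 0, and those of SRGAP2 (-2.05 to 2.65) and NOTCH2NL (-0.32 to 3.26) are wide.

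The single-copy relatives of *SRGAP2* encode proteins of the same family. *SRGAP1* had a log2 fold change of 0.00 (edgeR adjusted p = 0.984), with 986 and 1041 counts in controls and 1059 and 1293 in OE. *SRGAP3*, known for its part in neuronal branching, had 52 and 51 counts in controls and 133 in each OE library. Its replicates agreed closely, and its log2 fold change was 1.17 (SE 0.184, edgeR adjusted p = 0.0945), which did not pass the threshold. *ARHGAP4* was at 0.40 on the same scale (edgeR adjusted p = 0.273). Of these 3 relatives, edgeR called 0 and DESeq2 called 1. Of 13 genes of SRGAP2 partners and of the Slit and Robo pathway, in which srGAP proteins act, 12 were tested, 2 were higher and 1 was lower at an unadjusted edgeR p under 0.05, and 0 were called by edgeR against 3 by DESeq2. Over all tested genes, 20.8% had such a p and DESeq2 called 8.77%. The share of the list is thus near the background by p and above it by DESeq2. Their median log2 fold change was -0.07 against 0.01 over all genes, and 0.06 without vector control replicate 1. *SLIT3*, a secreted axon guidance ligand, was at 101 and 102 CPM in the controls and at 162 and 155 CPM in OE (log2 fold change 0.64, edgeR adjusted p = 0.0703). *HOMER3*, a postsynaptic scaffold gene, was at 27.2 and 32.9 CPM in the controls and at 6.10 and 8.50 CPM in OE (log2 fold change -2.04, edgeR adjusted p = 0.0707).

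*NOTCH2NL* had the largest log2 fold change of the 6 members, and it did not pass the test. It had 159 and 49 counts in controls and 340 and 323 counts in OE. Both OE values exceeded both control values, and the vector control libraries differed from each other by more than the OE libraries did. The level was 4.46 ± 3.35 CPM (SD, n = 2) in the controls and 12.4 ± 1.69 CPM (SD, n = 2) in OE. The log2 fold change was 1.47 (SE 0.627, 95% interval -0.32 to 3.26, edgeR adjusted p = 0.301). Leaving out vector control replicate 1 gave 2.56 and leaving out replicate 2 gave 0.85. It was positive in all 12 alternatives tried, with adjusted p from 0.0689 (DESeq2) to 0.923 (edgeR on the transcript of the highest mean count).

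The transcripts of *NOTCH2NL* were filled unevenly. In vector control replicate 1 all 159 counts lay on ENST00000344859.3, and in vector control replicate 2 all 49 lay on ENST00000369340.3. In the OE libraries both transcripts held counts, with 148 and 187 on the former and 192 and 136 on the latter. The former transcript thus had 159 counts in 1 vector control library and a like number in the OE libraries, and with only the transcript of the highest mean count the log2 fold change of the gene was 0.86 with a standard error of 2.41. Neither transcript is in the annotation used here, so their lengths and sequences were not compared.

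*NOTCH2*, the parent gene, was far more abundant. It had 12151 and 11542 counts in controls and 14184 and 16452 counts in OE, or 522 and 491 CPM against 565 and 569 CPM. The OE libraries lay above the vector control libraries, and the log2 fold change was 0.16 (SE 0.0544, 95% interval 0.01 to 0.32, edgeR adjusted p = 0.227). Its adjusted p lay between 0.0199 (DESeq2) and 0.433 over the 12 alternatives, and its fold change stayed below the study's threshold. Summed with *NOTCH2NL*, the log2 fold change was 0.18 (SE 0.0570, edgeR adjusted p = 0.210).

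Other genes of the Notch pathway were taken from a list of 23, of which 19 were tested. Of the 19, 0 were called by edgeR. At an unadjusted edgeR p under 0.05, 8 were higher and 3 lower in OE, beside 20.8% of all tested genes in either direction. These counts were 3 and 2 of 20 tested without OE replicate 1, 5 and 2 of 20 without OE replicate 2, 5 and 3 of 20 without vector control replicate 2, and 5 and 2 of 19 with the replicate number as a block. Without vector control replicate 1 they were 6 and 2 of 19. The median log2 fold change was 0.24 against 0.01 over all genes. Under DESeq2 4 of the 19 were called, beside 8.77% of all tested genes. *HES1*, a transcriptional repressor and direct Notch target, had the smallest p of the list, with 204 and 239 counts in controls and 677 and 817 counts in OE. Its log2 fold change was 1.54 (SE 0.135, edgeR adjusted p = 0.0590). *ADAM10*, the protease that makes the first ligand-dependent cut of Notch receptors, was at 177 and 162 CPM in the controls and at 119 and 121 CPM in OE (log2 fold change -0.50, edgeR adjusted p = 0.0970).

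*UNG*, the gene of the uracil DNA glycosylase that FAM72A binds, was at 62.7 and 60.0 CPM in the controls and at 56.1 and 8.92 CPM in OE. OE replicate 2 stood apart from the other 3 libraries. The log2 fold change was -0.92 (SE 0.920, edgeR adjusted p = 0.629), and it was -0.13 without OE replicate 2 and -2.78 without OE replicate 1. In the list of 10 genes of uracil excision and mismatch repair, all 10 had a log2 fold change below 0, with a median of -0.52 against 0.01 over all genes. The median was -0.25 without OE replicate 2, -0.91 without OE replicate 1 and -0.78 without vector control replicate 2, and from 8 to 10 genes were below 0 with any library left out. Of these, 3 had an unadjusted edgeR p under 0.05 and 0 were called, against 3 called by DESeq2, beside 20.8% and 8.77% of all tested genes by p and by DESeq2. *EXO1*, an exonuclease of mismatch repair, was at 28.0 and 25.8 CPM in the controls and at 15.0 and 16.5 CPM in OE (log2 fold change -0.77, edgeR adjusted p = 0.0933). *MSH6*, a mismatch recognition gene, was at 179 and 214 CPM against 44.6 and 75.3 CPM (log2 fold change -1.71, edgeR adjusted p = 0.108). In the same libraries, 18 of the 20 mitosis genes had both OE values below the controls, and their part in these values was not tested.

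The overexpressed lncRNA and its copies were counted in the same libraries. *RP5-998N21.4* had 32 and 33 counts in controls and 2407 and 2808 counts in OE (log2 fold change 6.11, edgeR adjusted p = 0.0109), and *RP11-439A17.9*, which lies near *FAM72B*, had 0 and 4 counts against 4515 and 5365. Reads may be shared between the copies, and in OE also with the transduced construct, so these counts were not assigned to a locus. *FAM72B* and *FAM72C*, the members within 100 kb of a copy, had log2 fold changes of -0.06 and -0.07. *FCGR1A*, whose locus holds the remaining copy *RP11-196G18.3*, had 36 and 26 counts in controls and 31 and 25 in OE (log2 fold change -0.34, edgeR adjusted p = 0.651). *RP11-196G18.3* itself had 139 and 112 counts in controls and 92 and 141 in OE. *FCGR1B*, at the locus of *RP11-439A17.9*, had 0 counts in all 4 libraries, where a count of 0 allows a level of up to 0.129 CPM in vector control replicate 1. *FCGR1C* had 16 and 9 counts in controls and 0 and 9 in OE. Neither *FCGR1B* nor *FCGR1C* passed the filter on low counts.

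Among the 17592 genes other than members with a mean of at least 1 CPM, the 3 whose pattern over the 4 libraries was most like that of summed *FAM72* were *ZNF524*, *SLC45A4* and *PABPC4*. After centering on the mean, their log2 CPM differed from that of *FAM72* by at most 0.00696, 0.0120 and 0.0128 in any library. For *SRGAP2* the nearest genes were *MSRB2*, *TNFAIP8* and *GAPDHP14*, at 0.105, 0.125 and 0.160. In *MSRB2* the log2 CPM was 1.36 and 3.58 in the controls and 3.06 and 3.45 in OE, with the same library lowest. The likeness rests on 4 libraries and is a description only.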

How the data were processed

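RNA-seq counts of 2 vector control and 2 OE libraries were analysed. Per the study's methods, quality control used FastQC, trimming used Trimmomatic, and alignment to hg19 used Bowtie2. The values the authors deposited are raw counts, whole numbers for each transcript. The submitters' processing notes also name StringTie 2.1.6. The counting tool, annotation release and use of strand are not given in the sources used here. Counts were summed per Ensembl gene, and in a second table over the *FAM72*, *SRGAP2* and *NOTCH2* families. Genes kept by filterByExpr (20528, or 20522 with families summed) were scaled with TMM factors and compared in edgeR 4.0.16 (R 4.3.3) by the quasi-likelihood test, two-sided, with Benjamini-Hochberg adjustment over all genes and no covariates. The standard error is the log2 fold change divided by the square root of F. The study used DESeq2, which was run as an alternative (1.42.0), as were limma-voom (limma 3.58.1), other scalings and filters, a replicate block and leaving out each library. Replicates differed far beyond counting noise, so none were merged. The members and lists were chosen with earlier results of these data known. Genes named were the members, their copies, the lncRNA copies and their hosts, *UNG*, and of every other list the 2 genes with the smallest p, while for the markers of other cell types only counts are given. The values of 1 gene under this rule are not reported here. *SRGAP1* was named because it completes a list of 3, and *TH* because it was the untested neuroblastoma marker. Positions and transcripts came from GENCODE v44 lifted to GRCh37, matched by identifier without version (28 of the 30 member transcripts), and promoters from RefSeq.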

Additional observations from a re-analysis of the deposited data

How the results depend on the processing

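With 2 libraries per condition, edgeR called 0 genes, with 2 residual degrees of freedom. The number was 1800 with DESeq2 on the same genes, 1741 with DESeq2 on genes with at least 10 counts in total, 9 with a minimum of 1 count in total and 122 at an adjusted p under 0.05. RLE and upper-quartile scaling, limma-voom and leaving out any library gave 0. No member and no summed family was called under any of these settings. The summed *FAM72* log2 fold change of -0.03 was 0.01 with upper-quartile scaling and 0.05 with the transcript of the highest mean count per gene, and lay between -0.11 and 0.03 with each library left out, so its sign is not determined. *FAM72A* was at 0.2 with the transcript of the highest mean count. With each library left out, *FAM72A* lay between -0.18 and 0.08, *FAM72B* between -0.13 and 0.01, *FAM72D* between -0.09 and 0.14, *SRGAP2* between -0.45 and 1.91, and the summed *SRGAP2* copies between -0.43 and 1.59. *FAM72B* was at 0 without OE replicate 2. *FAM72C*, *NOTCH2NL* and *NOTCH2* kept their direction in all 12 alternatives. The cause of these shifts was not tested, and the leave-one-out fits assume that a lone library varies like those of the other condition. The labels do not say whether same-numbered libraries belong together. The deviations of same-numbered libraries had a correlation across genes of -0.0216 over 20528 genes. From 2 libraries per condition, this value cannot tell whether they were paired. With the replicate number as a block, 0 genes were called, the summed *FAM72* log2 fold change was -0.03, and that of *SRGAP2* was 0.73 against 0.30 in edgeR without the block. Limma-voom without a block also gave 0.73 for *SRGAP2*, so this value is not particular to the block.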
